A study of Mus musculus with 83 samples.

Results

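Mouse genes named Zfp code for zinc finger proteins, and this account follows RNA polymerase II (Pol II) over 400 of them in embryonic stem cells. The members were all rows of the Pol II count tables whose symbol is Zfp, a number and at most 1 small letter, with Zfp42 left out. The 400 genes stand among 27752 genes in the tables of the C64 line, lie on 20 chromosomes, and took between 1.28% and 1.65% of the assigned read pairs of a library. No measured value entered their choice.

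Pol II was mapped by CUT&Tag, in which an antibody tethers Tn5 transposase so that DNA near Pol II is cut and sequenced, in 24 of the 83 libraries of the series. Heat shock (HS, 42 °C for 30 min), HS after IAA (HSIAA), IAA alone (500 µM for 6 h) and control cells had 2 libraries each in run 2 of C64. Retinoic acid (RA, 16 h, 25 µM in the labels, while the methods state another concentration), RA with IAA (RAIAA), IAA for 16 h and control cells had 2 each in run 3. B8 cells had 4 libraries with IAA for 6 h and 4 of controls, 2 per group in each of runs 6 and 8. Controls are untreated in the labels, while the methods describe cells given the solvent DMSO.

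Every cell used here carries TBP, the TATA-binding protein, fused at its own locus to a minimal auxin-inducible degron (mAID), and IAA (auxin) triggers its degradation. C64 derives from JM8.N4 and has a HaloTag on the largest Pol II subunit. By the methods, histone H3.3 also carries a GFP tag at its own locus in every line. B8 is C64 without a working Tbpl1 gene, which codes for TRF2, a relative of TBP, and it is 1 line, so the knockout cannot be told apart from other traits of that line. The control cells thus carry the same degron as the treated ones, and the comparisons show what IAA, HS and RA changed on that background. In C64 run 2 each group has 1 library from each of a pair of named sets, called a and b below. The labels do not say whether replicates were separate cultures, so p-values measure the spread between these libraries, which may be technical.

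Assigned read pairs numbered 3854622 to 5056322 per C64 library, 900651 to 1157308 per B8 library of run 6 and 2330887 to 2523832 per B8 library of run 8. Levels are given below in CPM, the pairs of a gene per 1e6 assigned pairs after TMM scaling. Tbpl1 had 0 to 10 pairs in the B8 libraries, against 29 to 75 in those of C64. The summed level of 8 embryonic stem cell markers, of which Esrrb and Tfcp2l1 made up 89.9% to 97.5% and Sox2 had no assigned pair in any library, was 481 to 732 and 407 to 555 CPM in RA and RAIAA libraries, against 1119 to 1681 CPM in the run 3 controls. It was 2244 to 2380 CPM in HS libraries, against 1257 to 1486 CPM in the run 2 controls, and 1798 to 1995 CPM in HSIAA libraries, against 1119 to 1133 CPM with IAA. The fibroblast markers summed to at most 66.3 CPM in any library. Where Pol II over a gene changes with RA, a change per cell and a change in which cells are present cannot be told apart.

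As background, most Zfp genes encode C2H2 zinc finger proteins, in which short loops held by a zinc ion each read a few bases of DNA. Many mouse members also carry a KRAB box, which recruits the corepressor Trim28 and the histone methyltransferase Setdb1 to the bound DNA. KRAB zinc finger genes arose by tandem duplication, stand in clusters, and in embryonic stem cells are best known for silencing endogenous retroviruses and for keeping imprints.

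The set has the sequence features of that family. Read from the coding sequences of the reference annotation, 186 of 390 members with a coding sequence (47.7%) held a match to the KRAB pattern. The share was 1.0% of all coding genes, and the median member had 10 C2H2 fingers. A single fixed pattern was used, so members without a match may still carry a KRAB box that departs from it. In runs of at least 3 members whose neighboring starts lie at most 200 kb apart, 198 members (49.5%) formed 30 clusters. The KRAB pattern was found in 66.3% of the clustered members and 28.9% of those outside, and the median finger number was 11.5 in clusters and 8 outside. The largest cluster, on chromosome 13, holds 23 members, and chromosome 17 holds one of 18. No finger was matched in 13 members. Not every Zfp symbol is a C2H2 gene: the 13 include Zfp36, which codes for the mRNA decay factor tristetraprolin. They also include Zfp185, which codes for an actin-associated LIM protein. Others, such as Zfp935 (150 residues) and Zfp781 (243 residues), matched the KRAB pattern but have a short annotated protein. For these the lack of a match does not show that the gene has no fingers.

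The deposited promoter lists put 63 members (15.8%) in the TATA list, against 18.5% of all genes, and 321 in the TATA-less list. RefSeq promoters on GRCm38.p6, from 250 bases before to 50 after the start, were found for 327 members (397 starts). TATAAA on the strand of the gene occurred in 3.27% of the members' promoters and 8.32% of all. Between positions -45 and -15, where a TATA box normally sits, it occurred in 2 member promoters (0.504%), against 2.14% of all. Both are shown over the 150 bases before the start, 5′ to 3′, with TATAAA in capitals. Zfp317 lies on chromosome 9 (chr9:19621941-19622090, plus strand), with TATAAA starting at -38 and GAANNTTC, a motif described next, elsewhere in its 300 bases, and Zfp791 on chromosome 8 (chr8:85119692-85119841, minus strand), with TATAAA starting at -26.
Zfp317: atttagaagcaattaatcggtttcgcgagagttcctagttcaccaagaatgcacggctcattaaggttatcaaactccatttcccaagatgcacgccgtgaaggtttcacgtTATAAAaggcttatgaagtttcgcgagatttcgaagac
Zfp791: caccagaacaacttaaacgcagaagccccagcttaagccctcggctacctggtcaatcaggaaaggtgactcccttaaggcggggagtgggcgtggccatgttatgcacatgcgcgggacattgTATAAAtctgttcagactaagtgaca

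GAANNTTC, the inverted core of a heat shock element that reads the same on both strands, occurred in 8.31% of the members' promoters and 7.86% of all. The 6 members called with heat shock below have the following promoters, in which capitals mark CG dinucleotides; none of them holds TATAAA or GAANNTTC in its 300 bases. They are Zfp386 (chr12:116047574-116047723, plus), Zfp280d (chr9:72274738-72274887, plus), Zfp91 (chr19:12796124-12796273, minus), Zfp655 (chr5:145231592-145231741, plus), Zfp280b (chr10:76032462-76032611, plus) and Zfp280c (chrX:48594620-48594769, minus).
Zfp386: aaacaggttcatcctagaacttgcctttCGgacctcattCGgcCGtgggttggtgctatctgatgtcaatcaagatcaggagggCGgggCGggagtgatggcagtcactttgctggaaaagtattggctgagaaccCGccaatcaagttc
Zfp280d: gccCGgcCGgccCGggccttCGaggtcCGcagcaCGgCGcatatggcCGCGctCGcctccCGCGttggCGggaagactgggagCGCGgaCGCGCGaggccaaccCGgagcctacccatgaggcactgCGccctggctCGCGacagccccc
Zfp91: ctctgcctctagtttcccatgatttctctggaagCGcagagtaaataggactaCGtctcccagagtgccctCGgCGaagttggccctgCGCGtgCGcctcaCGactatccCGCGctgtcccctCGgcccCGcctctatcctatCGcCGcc
Zfp655: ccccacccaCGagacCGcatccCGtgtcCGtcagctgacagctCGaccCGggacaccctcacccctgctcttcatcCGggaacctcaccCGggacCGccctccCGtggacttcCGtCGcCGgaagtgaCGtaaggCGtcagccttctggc
Zfp280b: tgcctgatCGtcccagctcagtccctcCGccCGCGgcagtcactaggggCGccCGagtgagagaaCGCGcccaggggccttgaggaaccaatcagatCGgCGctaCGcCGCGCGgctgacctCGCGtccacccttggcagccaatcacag
Zfp280c: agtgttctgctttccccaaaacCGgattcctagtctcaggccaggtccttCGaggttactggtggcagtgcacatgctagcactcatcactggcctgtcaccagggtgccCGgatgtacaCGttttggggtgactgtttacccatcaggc
Their 300 bases hold between 8 (Zfp280c) and 37 (Zfp280d) CG dinucleotides, against a median of 14 over the members and 7 over all promoters. The genes that were lower with HS include the one richest and the one poorest in CG of the 6.

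Members of the chromosome 4 clusters differ from these. The 12 promoters listed for 10 members of clusters chr4A, chr4B and chr4C had a median of 4.5 CG and 42.7% GC, against 14 CG and 54.7% GC over all member promoters. Zfp202 (chr9:40192166-40192315, plus), which lies in no cluster, is shown beside Zfp980 (chr4:145670547-145670696, plus) and Zfp984 (chr4:147809789-147809938, minus), since these 3 turn up in the IAA comparison of B8 below.
Zfp202: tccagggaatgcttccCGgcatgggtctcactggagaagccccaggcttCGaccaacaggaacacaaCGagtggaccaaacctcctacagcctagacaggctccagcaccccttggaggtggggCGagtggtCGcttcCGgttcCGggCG
Zfp980: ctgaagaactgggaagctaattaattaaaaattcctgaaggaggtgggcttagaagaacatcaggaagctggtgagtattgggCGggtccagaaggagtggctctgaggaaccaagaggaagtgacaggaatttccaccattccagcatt
Zfp984: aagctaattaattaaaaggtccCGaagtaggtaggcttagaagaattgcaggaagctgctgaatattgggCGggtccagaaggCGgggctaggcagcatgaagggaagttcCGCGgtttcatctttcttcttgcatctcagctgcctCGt
Zfp980 and Zfp984 share a run of 20 bases, tattgggcgggtccagaagg, that starts at -74 in Zfp980 and at -87 in Zfp984.

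Counts were obtained for most of the set. No read pair was assigned to 15 members in any library, all of which lie wholly within the bounds of other genes. Pairs over more than 1 gene stay unassigned, so these zeros cannot be read as absence of Pol II. Bounds run from the first to the last position of a gene's row. Some members wholly within them, such as Zfp513, did have counts. Averages of 23 members (5.75%) were under 1 CPM, against 30.2% of all genes. Per kb of gene, the median member had 0.939 CPM, against 0.518 over all genes, and among genes over 1 CPM the medians were 0.998 for members and 1.04 for all. Of the members, 23.5% reached the top 25% of all genes by CPM per kb. The highest were Zfp513 (15.7 CPM per kb), Zfp207 (11.4), which codes for a spindle and splicing factor, Zfp202 (8.58), Zfp296 (8.18) and Zfp532 (7.14). Clustered members had a median of 0.86 CPM per kb, against 1.11 for those outside clusters.

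A gene was tested where filterByExpr of edgeR kept it at a minimum count of 20. With HS, 352 members were tested, and the filter fell between Zfp422 at 3.12 CPM, the lowest tested, and Zfp648 at 4.79 CPM, the highest left out. In the shallower B8 libraries 259 were tested, between Zfp493 at 9.0 CPM and Zfp428 at 13.7 CPM. All 14 comparisons tested 259 members and 34 were tested in none. Counting covered the whole gene without strand, so Pol II on either strand is included, and 164 members overlap the bounds of another gene. Of the 48 members not tested with HS, 30 were overlapped over at least 50% of their length, and of the 141 not tested in B8, 37 were.

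Of the pairwise comparisons within C64, only those of heat shock gave member calls by the main test. The largest change called there was a drop at Zfp386, a KRAB member of chromosome 12 (116047724 to 116063360). It had 7.04 and 10.0 CPM in HS libraries, against 29.7 and 29.0 CPM in control libraries. After IAA it had 7.63 and 8.47 CPM with HSIAA, against 30.1 and 22.6 CPM with IAA alone. The heat-shocked libraries all lay far below the others, and the log2 fold change was -1.76 ± 0.32 (SE, adjusted p = 0.00687, edgeR quasi-likelihood test, n = 2 each) without IAA and -1.70 ± 0.30 (adjusted p = 0.0173) with it.

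Of the 352 members tested, 1 was higher and 3 were lower with HS alone (1.14%), while 3.02% of all genes were called, 1.57% higher and 1.46% lower. With HSIAA against IAA, 2 were higher and 4 lower (1.70%), while 1.4% of all were called, 0.698% higher and 0.704% lower. The median member changed by -0.02 without IAA and by -0.09 with it on the log2 scale, against 0.03 and 0.01 over all genes tested (SE of a member 0.32 and 0.31 at the median). All 4 members called without IAA were also called with it, in the same direction. These contrasts share no library: 4 of 4 and 4 of 6 member calls are shared, and of all genes 183 calls are shared, which is 37.0% of those without IAA and 79.2% of those with it.

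The Zfp280 family, homologs of Drosophila suppressor of Hairy-wing, split in direction. Zfp280d, on chromosome 9, had 55.1 and 100.5 CPM in HS libraries, against 189 and 174 CPM in controls. With HSIAA it had 51.9 and 87.9 CPM, against 162 and 176 CPM with IAA. Both pairs of groups were apart, at -1.20 ± 0.26 (adjusted p = 0.0175) and -1.26 ± 0.27 (adjusted p = 0.0373). Zfp280c, on the X chromosome, had 14.5 and 16.3 CPM with HSIAA, against 42.8 and 36.5 CPM with IAA, a change of -1.35 ± 0.25 (adjusted p = 0.0208). In HS libraries Zfp280c had 22.5 and 23.6 CPM, against 47.7 and 34.6 CPM in controls, where the change of -0.80 did not pass the test.

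Zfp280b, on chromosome 10, went the other way. It had 50.8 and 38.3 CPM with HSIAA, against 14.4 and 23.2 CPM with IAA, at 1.25 ± 0.28 (adjusted p = 0.0444). In HS libraries it had 52.5 and 27.7 CPM, against 22.4 and 16.3 CPM in controls, and its change of 1.09 ± 0.32 had an adjusted p of 0.0807. The groups did not overlap in either case, so the family has a member above and 2 members below their controls, with and without IAA.

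Zfp91 codes for an atypical E3 ubiquitin ligase that acts in NF-kappaB signaling. It had 45.2 and 71.3 CPM in HS libraries, against 122.9 and 125 CPM in controls, and 35.5 and 60.6 CPM with HSIAA, against 105.5 and 133 CPM with IAA. Its changes were -1.06 ± 0.24 (adjusted p = 0.0242) and -1.30 ± 0.27 (adjusted p = 0.0332). The count row of Zfp91 joins stretches of chromosome 19 that are not adjacent. Zfp655, whose human homolog binds the signaling protein VAV1, rose: it had 120.3 and 96.0 CPM in HS libraries, against 54.9 and 56.1 CPM in controls, and 104 and 98.7 CPM with HSIAA, against 43.0 and 53.2 CPM with IAA. Its changes were 1.0 ± 0.23 (adjusted p = 0.0253) and 1.08 ± 0.23 (adjusted p = 0.0352).

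**Figure D1:**
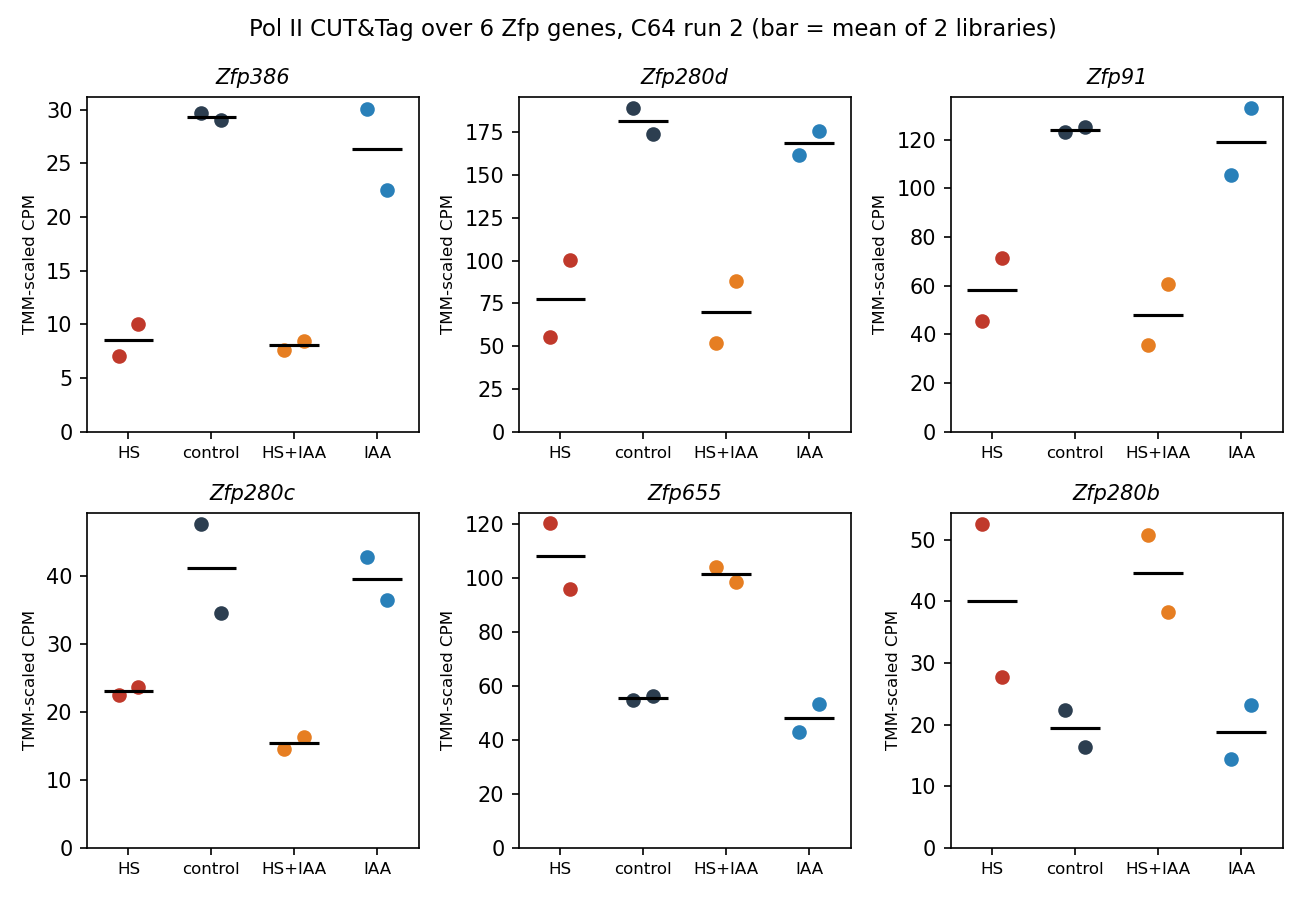
TMM-scaled CPM (vertical axis, from 0) over 6 Zfp genes in C64 run 2, by group (HS, control, HSIAA, IAA); points are the 2 libraries of a group, a left and b right, and bars their mean. Zfp386 lay between 7.04 and 10.0 CPM in the 4 heat-shocked libraries, while Zfp655 and Zfp280b were higher with heat shock, with and without IAA.

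Library b of each heat-shocked group lay nearer to the unshocked libraries at Zfp280d and Zfp91, and the calls depend on single libraries. Without HS library b, 9 members were higher and 27 lower with HS (36 in all, 10.1% of members, against 15.4% of all genes), and without HSIAA library b, 13 were higher and 43 lower (56 in all, 15.6%, against 16.3% of all genes). In each such fit the lone library is assumed to vary like the others. Without HS library a there were 11 (3.08%, against 5.53% of all genes) and without HSIAA library a 12 (3.33%, against 3.6%). Without control library a, 1 member was left in the comparison without IAA (0.282%, against 0.708% of all genes), and in that with IAA, 1 was left without IAA library a (0.277%, against 0.57%) and 3 without IAA library b (0.833%, against 0.553%). Zfp386 was past the threshold under all 9 alternatives without IAA, with adjusted p between 2.4e-06 and 0.0306. With IAA it lost the call without IAA library a (-1.47, adjusted p = 0.0969). Zfp280d, Zfp91 and Zfp655 kept their direction under every alternative run and their highest adjusted p were 0.110, 0.143 and 0.351 without IAA, each in a fit that left out a control library, and 0.242, 0.240 and 0.493 with IAA, each in a fit that left out an IAA library. Zfp280b and Zfp280c lost the call without IAA library a (adjusted p = 0.405 and 0.116), and Zfp280b also without HSIAA library a (0.0523).

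Because libraries of the same set deviated together, the set was also fitted as a replicate block, which widened the heat shock lists. With the block 10 members were higher and 13 lower without IAA (6.53%, against 8.41% of all genes, 3.98% higher and 4.43% lower) and 9 higher and 22 lower with it (8.81%, against 9.76% of all, 3.81% higher and 5.95% lower). These shares were near those of all genes, and the difference was not tested. With the block the median standard error was 0.31 and 0.28 for members, against 0.27 and 0.25 for all genes. In this fit 17 members were called in both comparisons, all in the same direction, which is 73.9% and 54.8% of the 2 lists, while over all genes the shares were 67.8% and 57.9%. Higher in both were Zfp217, Zfp655, Zfp280b, Zfp709, Zfp459 and Zfp622, and lower in both were Zfp442, Zfp280c, Zfp292, Zfp112, Zfp317, Zfp280d, Zfp652, Zfp346, Zfp386, Zfp236 and Zfp91.

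Zfp317, one of the pair with TATAAA near the start, was among those that the block added. It had 9.05 and 28.7 CPM in HS libraries, against 51.7 and 37.8 CPM in controls, and 6.87 and 24.6 CPM with HSIAA, against 31.8 and 37.1 CPM with IAA. Its change was -1.22 ± 0.37 without the block (adjusted p = 0.0918) and -1.34 ± 0.27 with it (adjusted p = 7.9e-05). Zfp622, which codes for a factor of large ribosomal subunit maturation, had 69.8 and 43.0 CPM in HS libraries, against 32.5 and 25.8 CPM in controls, at 0.99 ± 0.28 (adjusted p = 0.0666, and 0.00345 with the block). Zfp217, known in embryonic stem cells for sustaining pluripotency, had 184 and 218 CPM with HSIAA, against 99 and 111 CPM with IAA, at 0.95 ± 0.24 (adjusted p = 0.0697, and 0.0023 with the block).

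The heat shock changes with and without IAA were set side by side. Of 348 members tested in both contrasts, 268 (77.0%) changed in the same direction, against 76.7% of all genes. The log2 fold changes correlated across the members at Pearson's r = 0.71 (Spearman's rho = 0.68), against r = 0.74 over 16096 genes; members of a cluster can share reads and are not independent. The interaction of HS and IAA called 0 of 356 members (0% of all genes) by edgeR and by both other tests, while 2 members had an unadjusted p below 0.05. Its standard error was 0.44 at the median member, so that differences of the size of the heat shock changes themselves could be missed.

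**Figure D2:**
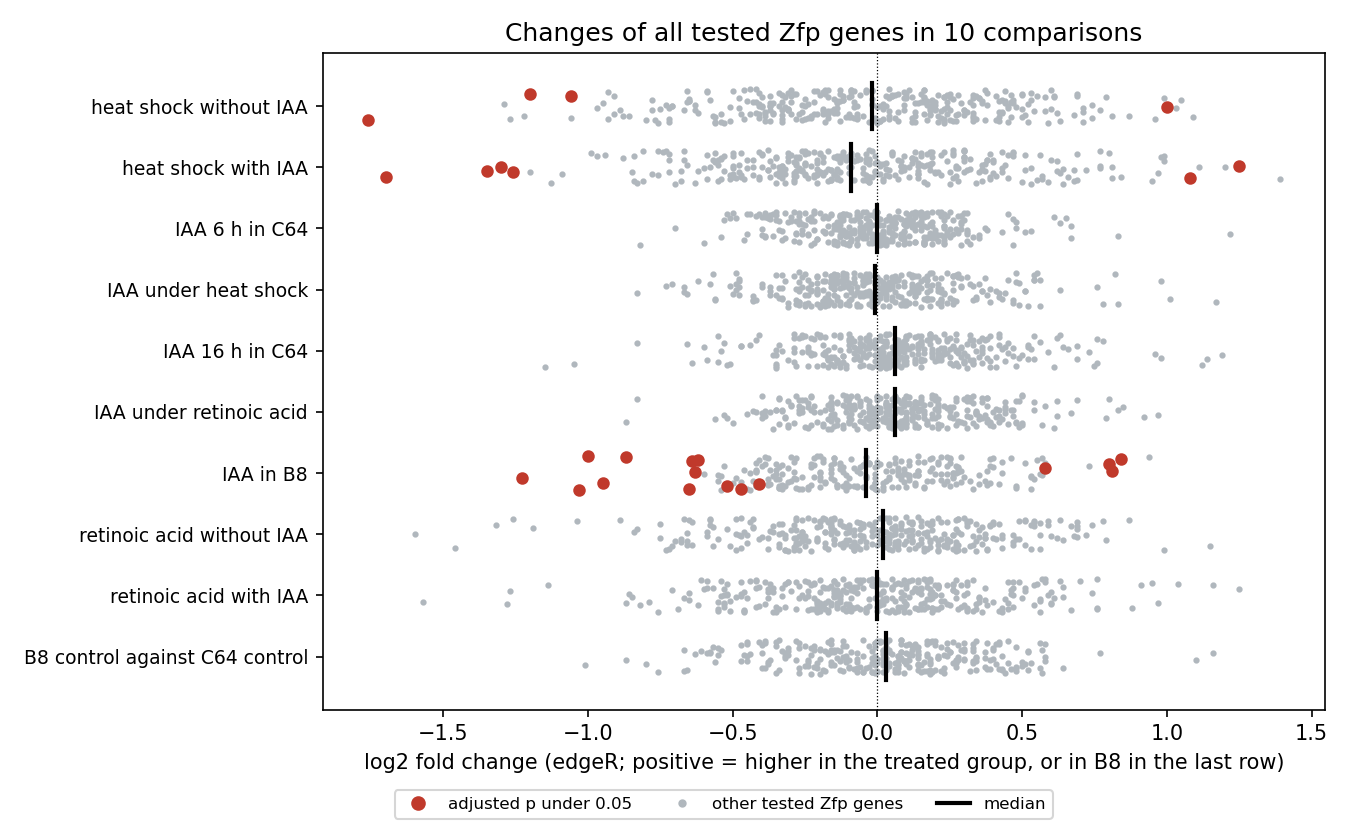
Log2 fold changes (horizontal axis) of all tested Zfp genes in 10 comparisons (rows), with the treated group over its control, and B8 over C64 in the last row; red points are members with an adjusted p under 0.05, gray points the other tested members, and black lines the medians. The medians lay between -0.09 and 0.06 in every row, and called members appear with heat shock and with IAA in B8.

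IAA in C64 gave few calls among the members. After 6 h, 0 of 352 members passed the test (0.0433% of all genes did), also by the likelihood-ratio test and DESeq2, while 9 members (2.56%) had an unadjusted p under 0.05, against 2.19% of all genes. After 16 h, 0 of 351 passed (0% of all genes) by each of the 3 tests and 4 had an unadjusted p under 0.05. The median member changed by 0.00 after 6 h and by 0.06 after 16 h, against 0.00 and 0.01 over all genes, and a smaller share of members (37.9%) than of all genes (48.5%) lay below 0 after 16 h. Under HS and under RA, IAA likewise called 0 of 351 and 0 of 348 members (0% of all genes in both) by each of the 3 tests, with 2 and 1 at an unadjusted p under 0.05.

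With the replicate block a few members of C64 passed. Zfp367 had 110 and 140 CPM with 6 h of IAA, against 83.8 and 97.8 CPM in controls, at 0.46 ± 0.11 (adjusted p = 0.00319 with the block, where 1.19% of all genes were called, 0.111% higher and 1.08% lower, and 1.0 without it). Zfp39 had 20.6 and 25.1 CPM with 16 h of IAA, against 9.88 and 11.3 CPM in controls, at 1.12 ± 0.28 (adjusted p = 0.00281 with the block, 2.16% of all genes called, 0.734% higher and 1.43% lower, and 0.999 without it). Zfp462, which in embryonic stem cells holds heterochromatin at differentiation genes, had 289 and 234 CPM with 16 h of IAA, against 419 and 291 CPM in controls, at -0.41 ± 0.11 (adjusted p = 0.0119 with the block). Under HS the block called Zfp804a, known from human psychiatric genetics, higher with IAA (1.17, adjusted p = 0.0478, with 0.65% of all genes called, 0.0902% higher and 0.559% lower), with 17.2 and 16.5 CPM in HSIAA libraries, against 7.44 and 7.66 CPM in HS libraries. Under RA it called Zfp280c lower with IAA (-0.87, adjusted p = 0.012, with 1.04% of all genes called, 0.401% higher and 0.639% lower), with 25.9 and 21.4 CPM in RAIAA libraries, against 43.6 and 43.7 CPM in RA libraries.

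Fitting a single IAA effect over all 24 libraries, with the 6 contexts as blocks, called 0 members higher and 2 lower of 364 (0.549%, against 0.797% of all genes). They were Zfp131, a BTB-domain zinc finger gene, at -0.53 ± 0.12 (adjusted p = 0.0223) and Zfp280c at -0.44 ± 0.11 (adjusted p = 0.0487). Zfp131 had 42.2 and 47.1 CPM with 6 h of IAA, against 63.9 and 57.0 CPM in controls of run 2, and 42.5 and 45.3 CPM with HSIAA, against 64.8 and 55.1 CPM with HS. The groups stood apart in both. After 16 h it had 41.9 and 28.4 CPM with IAA, against 64.7 and 38.7 CPM in controls, where they overlapped, and under RA it had 37.6 and 35.6 CPM with RAIAA, against 44.3 and 31.6 CPM with RA, a change of -0.03. Its call was lost in 4 of 29 alternatives, each without 1 library (highest adjusted p = 0.0657), and that of Zfp280c in 20 of 29 (highest 0.116).

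With the replicate block the same fit called 9 members, 2 higher and 7 lower (2.47%, against 2.83% of all genes), adding Zfp202, Zfp423, Zfp407, Zfp462 and Zfp236 to the lower and Zfp229 and Zfp114 to the higher. Of 210 members with a value in all 6 contexts, 12 were lower in every one (5.71%, against 6.83% of all genes) and 9 higher in every one (4.29%, against 3.28%). The 12 include Zfp131, Zfp280c, Zfp280d, Zfp202, Zfp407, Zfp423, Zfp462 and Zfp568, a repressor of a placental Igf2 transcript. The 9 include Zfp809, which silences retroviruses through their proline tRNA primer binding site, and Zfp229. Both shares were near those of all genes.

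In B8 cells, which lack TRF2, the share of members called with IAA was near that of all genes. Each group had 4 libraries, against 2 in C64. Of 259 tested, 4 were higher and 12 lower (6.18%), while 5.8% of all genes were called, 2.44% higher and 3.36% lower. The median member changed by -0.04, against -0.02 over all genes. Of the 16 called members, 15 had IAA and control libraries apart in run 6, 15 in run 8 and 14 in both. The calls came from these same libraries, so this separation is no independent evidence. Its share over all genes was not taken. Levels differed between the runs, so that only 4 of the 16, namely Zfp407 and Zfp618, which were lower, and Zfp809 and Zfp182, which were higher, were apart over all 8 libraries.

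The largest drop was at Zfp202, whose human homolog represses genes of lipid metabolism. It had 74.8 and 61.6 CPM with IAA in run 6, against 148 and 91.4 CPM in controls, and 113 and 107 CPM with IAA in run 8, against 325.5 and 303 CPM in controls. Each run had its IAA libraries below its controls, and the change was -1.23 ± 0.16 (adjusted p = 0.00032, n = 4 each, with run as a term). Zfp407, a long gene of chromosome 18, had 192, 179, 245 and 207 CPM with IAA, against 320.1, 270.4, 476 and 439 CPM in controls (runs 6, 6, 8 and 8 in both). All 4 IAA libraries lay below all 4 controls, at -0.87 ± 0.11 (adjusted p = 0.00039).

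Zfp532, whose human homolog is a fusion partner of the NUT gene, fell by 1.03 on the log2 scale (SE 0.15, adjusted p = 0.00121). It had 223 and 249.9 CPM with IAA in run 6, against 436 and 283 CPM in controls, and 599 and 614 CPM in run 8, against 1591 and 1567 CPM in controls. Zfp423, a partner of BMP-activated SMAD proteins, fell by 1.0 (SE 0.17, adjusted p = 0.00329), with 339 and 338 CPM in run 6, against 482 and 422 CPM in controls, and 594 and 688 CPM in run 8, against 1863 and 1779 CPM in controls. At both genes the control libraries of run 8 stood far above all others. Zfp131 had 10.8 and 20.6 CPM with IAA in run 6, against 46.7 and 37.4 CPM in controls, and 34.9 and 51.1 CPM in run 8, against 68.1 and 71.0 CPM in controls, at -0.95 ± 0.21 (adjusted p = 0.0156).

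Among the higher members, Zfp809 had 78.9 and 79.7 CPM with IAA in run 6, against 36.8 and 25.6 CPM in controls, and 62.5 and 52.4 CPM in run 8, against 46.3 and 39.8 CPM in controls. It was higher in 4 of 4 IAA libraries, at 0.80 ± 0.18 (adjusted p = 0.017). Zfp182, an X-linked KRAB gene, had 31.6 and 40.3 CPM with IAA in run 6, against 16.4 and 14.8 CPM in controls, and 17.0 and 18.5 CPM in run 8, against 12.0 and 12.4 CPM in controls, at 0.84 ± 0.23 (adjusted p = 0.0388). Zfp185 (0.81) and Zfp229 (0.58) were the other members called higher. At Zfp809, Zfp182 and Zfp229 the gap was wider in run 6.

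**Figure D3:**
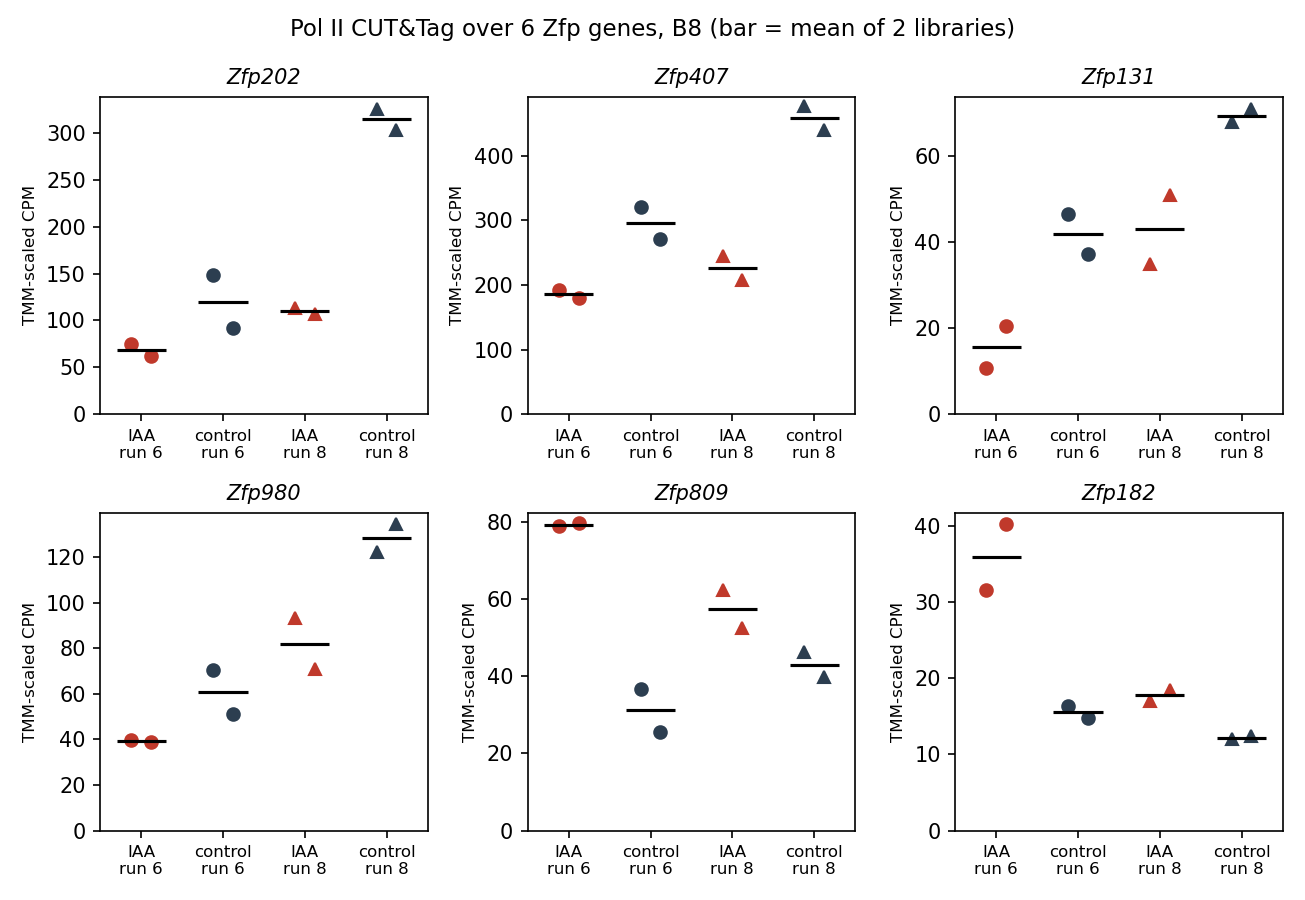
TMM-scaled CPM (vertical axis, from 0) over 6 Zfp genes in B8, by group and run (IAA left of control in each run); circles are libraries of run 6, triangles those of run 8, and bars the mean of 2 libraries. Zfp202, Zfp407, Zfp131 and Zfp980 were lower and Zfp809 and Zfp182 higher with IAA within each run, while the runs differ in level.

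The B8 list rests on run and on single libraries. Run 8 alone called 7 members higher and 39 lower (20.3% of all genes called), run 6 alone called 0 of 211 (0.146% of all genes called), and without a term for run 0 of 244 passed. Leaving out control replicate 2 of run 6 gave 9 higher and 30 lower (14.3% of all genes called). Leaving out any other library gave between 6 and 9 (2.32% to 3.17% of all genes called). Zfp407 stayed past the threshold in 15 of 17 alternatives, the exceptions being run 6 alone (-0.76, adjusted p = 0.221) and the fit without a term for run (-0.88, adjusted p = 0.0962). Zfp809 did so in 10 of 17, with changes between 0.45 and 1.25 and an adjusted p of at most 0.150, Zfp618 in 8 of 17 and Zfp182 in 5 of 16. Gene length and library moved with these results: tested genes over 100 kb had a median change of -0.15 over all genes and -0.16 over 23 members. In run 6 alone the medians were -0.27 and -0.24, and in run 8 alone 0.03 and -0.22. The 12 lower members had a median length of 52.2 kb and the 4 higher ones 36.0 kb, against 22.4 kb over the members tested. The part of length in these changes was not tested.

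The difference between the IAA effect in B8 and that in C64 was tested directly. It called 0 of 325 members (0.0913% of all genes) by the main test, with 24 at an unadjusted p below 0.05 (7.38%, against 7.0% of all genes). The likelihood-ratio test and DESeq2 called 2 members each. The shares of all genes for these other tests are not given, and nothing particular to the members is read from those counts. The lowest were Zfp202 at -1.12 ± 0.25 (adjusted p = 0.150), Zfp532 at -1.11 ± 0.29 (0.256) and Zfp984 at -0.72 ± 0.23 (0.415), and the highest by p were Zfp182 at 1.29 ± 0.34 (0.256), Zfp780b at 1.43 ± 0.43 (0.391) and Zfp410 at 0.97 ± 0.30 (0.408). Without control replicate 2 of run 6, 4 members passed (1.25%, against 0.822% of all genes). A larger effect in B8 was thus not shown for any member by the main test.

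Control cells of B8 and C64 were also compared, although cell line and run cannot be told apart here. The test called 0 of 307 members (0% of all genes), as did the likelihood-ratio test and DESeq2, and 10 had an unadjusted p below 0.05. With the controls of run 8 alone 19 members were higher and 2 lower in B8 (5.24% of all genes called), and with those of run 6 alone 0 were higher and 2 lower (3.51%). Zfp91 had the smallest p, at -0.76 ± 0.20 (adjusted p = 0.766), with 66.3, 61.0, 78.7 and 76.4 CPM in B8 controls, against 122.9 and 125 CPM in C64 controls. Zfp207 had 150.6, 108, 274.5 and 278 CPM in B8 controls, against 453 and 389 CPM in C64 controls, at -1.01 ± 0.35 (adjusted p = 0.826).

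With retinoic acid, the members with the smallest p in the fit with the replicate block were highly occupied ones, while larger falls at others are given below. Zfp202 had 103 and 54.5 CPM in RA libraries, against 239 and 157 CPM in controls, and 79.2 and 48.1 CPM with RAIAA, against 194 and 185 CPM with IAA. Zfp532 had 516 and 204.6 CPM in RA libraries, against 1082 and 564 CPM in controls, and 534 and 247 CPM with RAIAA, against 1058 and 827 CPM with IAA. Zfp710 had 191 and 157 CPM in RA libraries, against 411 and 425 CPM in controls, and 190.4 and 139 CPM with RAIAA, against 298 and 432 CPM with IAA. For these 3 genes the RA libraries lay below their controls in both settings.

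Zfp827, whose human homolog brings the NuRD complex to telomeres, went the other way. It had 400.0 and 268 CPM in RA libraries, against 169 and 168 CPM in controls, and 415.5 and 264 CPM with RAIAA, against 174 and 156 CPM with IAA. Zfp618 had 106 and 87.4 CPM in RA libraries, against 63.4 and 65.8 CPM in controls. Zfp281, a regulator of the exit from pluripotency, had 17.0 and 14.2 CPM in RA libraries, against 32.9 and 23.6 CPM in controls.

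None of these passed the main test. It called 0 of 346 members with RA alone (0.0183% of all genes, of which 0.00612% lower) and 0 of 349 with RAIAA against IAA (0% of all genes), with 19 and 14 reaching 0.05 before adjustment. The likelihood-ratio test called 2 in each, and DESeq2 2 and 3. The shares of all genes called by these other tests are not given, so nothing particular to the members is read from these counts. Libraries of the same number deviated together in run 3, with a correlation of at least 0.45 in each of 6 pairs of groups, and with the replicate block 10 members were higher and 19 lower with RA alone (8.38%, against 11.4% of all genes, 4.75% higher and 6.64% lower) and 2 higher and 5 lower with RAIAA (2.01%, against 1.82%, 0.75% higher and 1.07% lower). All 7 called with RAIAA were also called with RA alone, in the same direction, and 7 is 24.1% of the longer list, while over all genes 271 calls were shared, 14.5% and 90.9% of the lists.

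In the fit with the block, Zfp202 changed by -1.35 ± 0.12 with RA (adjusted p = 9.5e-25) and by -1.59 ± 0.17 with RAIAA (4.7e-06), Zfp532 by -1.25 ± 0.11 (3.7e-27) and -1.35 ± 0.19 (0.000156), and Zfp710 by -1.26 ± 0.11 (5.4e-26) and -1.12 ± 0.18 (0.000851). Zfp827 changed by 0.97 ± 0.11 (2.1e-15) and 1.02 ± 0.16 (0.000507). Zfp462 (-0.79 and -0.71), Zfp989 (-0.82 and -1.29) and Zfp282 (0.53 and 0.95) completed the shared list. The largest falls called with RA alone in this fit were at Zfp641 (-1.59 ± 0.53, adjusted p = 0.0218) and Zfp558 (-1.47 ± 0.54, 0.0445). Zfp641 averaged only 6.10 CPM in the run 3 controls. These p-values rest mostly on the spread shared by all genes, since 2 pairs leave little of a gene's own.

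**Figure D4:**
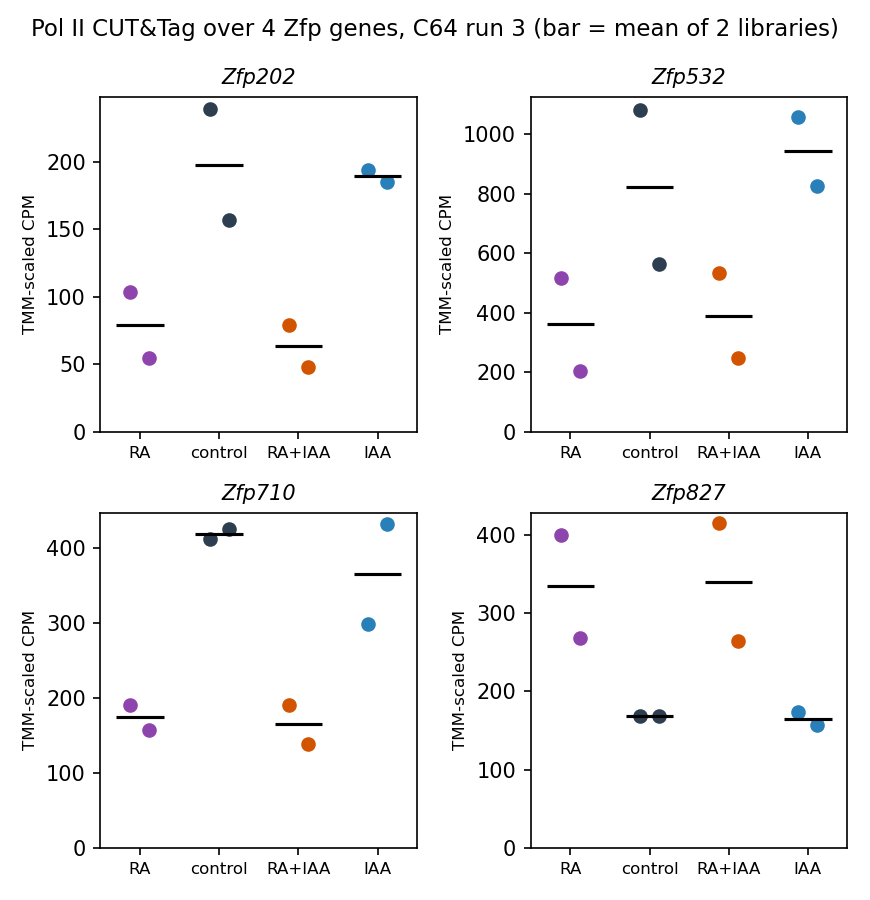
TMM-scaled CPM (vertical axis, from 0) over 4 Zfp genes in C64 run 3, by group (RA, control, RAIAA, IAA); points are the 2 libraries of a group, replicate 1 left and 2 right, and bars their mean. Zfp202, Zfp532 and Zfp710 were lower and Zfp827 higher with RA, with and without IAA, and replicate 1 lay above replicate 2 at most of these points.

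The RA changes with and without IAA were compared in the same way. Of 342 members tested in both, 241 (70.5%) changed in the same direction, against 69.1% of all genes, and the fold changes correlated across members at r = 0.54 (rho = 0.50), against 0.55 over all genes. The interaction of RA and IAA called 0 of 360 (0% of all genes) by each of the 3 tests, with 4 at an unadjusted p under 0.05 and a standard error of 0.46 at the median member. Zfp202 and Zfp532 were low both with RA in C64 and with IAA in B8, contrasts that share no library. They were singled out with their values known. Over the members, 135 of 259 (52.1%) had the same sign in these 2 contrasts, against 55.0% of all genes. The correlation was r = 0.25, against 0.17. For RAIAA and IAA in B8 it was 157 of 259 (60.6%, against 55.5%), with r = 0.33, against 0.18. The differences from all genes were not tested.

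The genomic clusters were compared by the median change of their tested members. With HS alone, cluster medians ranged from -0.56 to 0.48, and with HSIAA from -0.53 to 0.64. Cluster chr7E, 10 genes around Zfp112 and Zfp111 on chromosome 7 of which none matched the KRAB pattern, had 10 of 10 members below 0 with HSIAA (median -0.53, against 0.05 over the other genes of the chromosome) and 5 of 9 below 0 with HS alone (median -0.15). Zfp112 had 6.03 and 13.8 CPM in HS libraries, against 23.9 and 25.6 CPM in controls, at -1.29 ± 0.36 (adjusted p = 0.0644, and 0.0011 with the block). Cluster chr9B, which holds Zfp809, had a median of -0.56 with HS and -0.34 with HSIAA, over 4 tested members. The main test called no clustered member with HS, with or without IAA, but the replicate block called 7 of 172 clustered members (4.07%) and 16 of 180 others (8.89%) with HS, and 12 of 173 (6.94%) and 19 of 179 (10.6%) with HSIAA. The clustered ones include Zfp442, Zfp459 and Zfp709 in both, and Zfp111 and Zfp180 of chr7E with HSIAA. The difference between clustered and other members was not tested. The cluster on chromosome 13 had only 12 of 23 members tested, with medians of 0.17 and 0.30. The bounds of other genes cover at least 74.7% of each of the 11 left out.

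**Figure D5:**
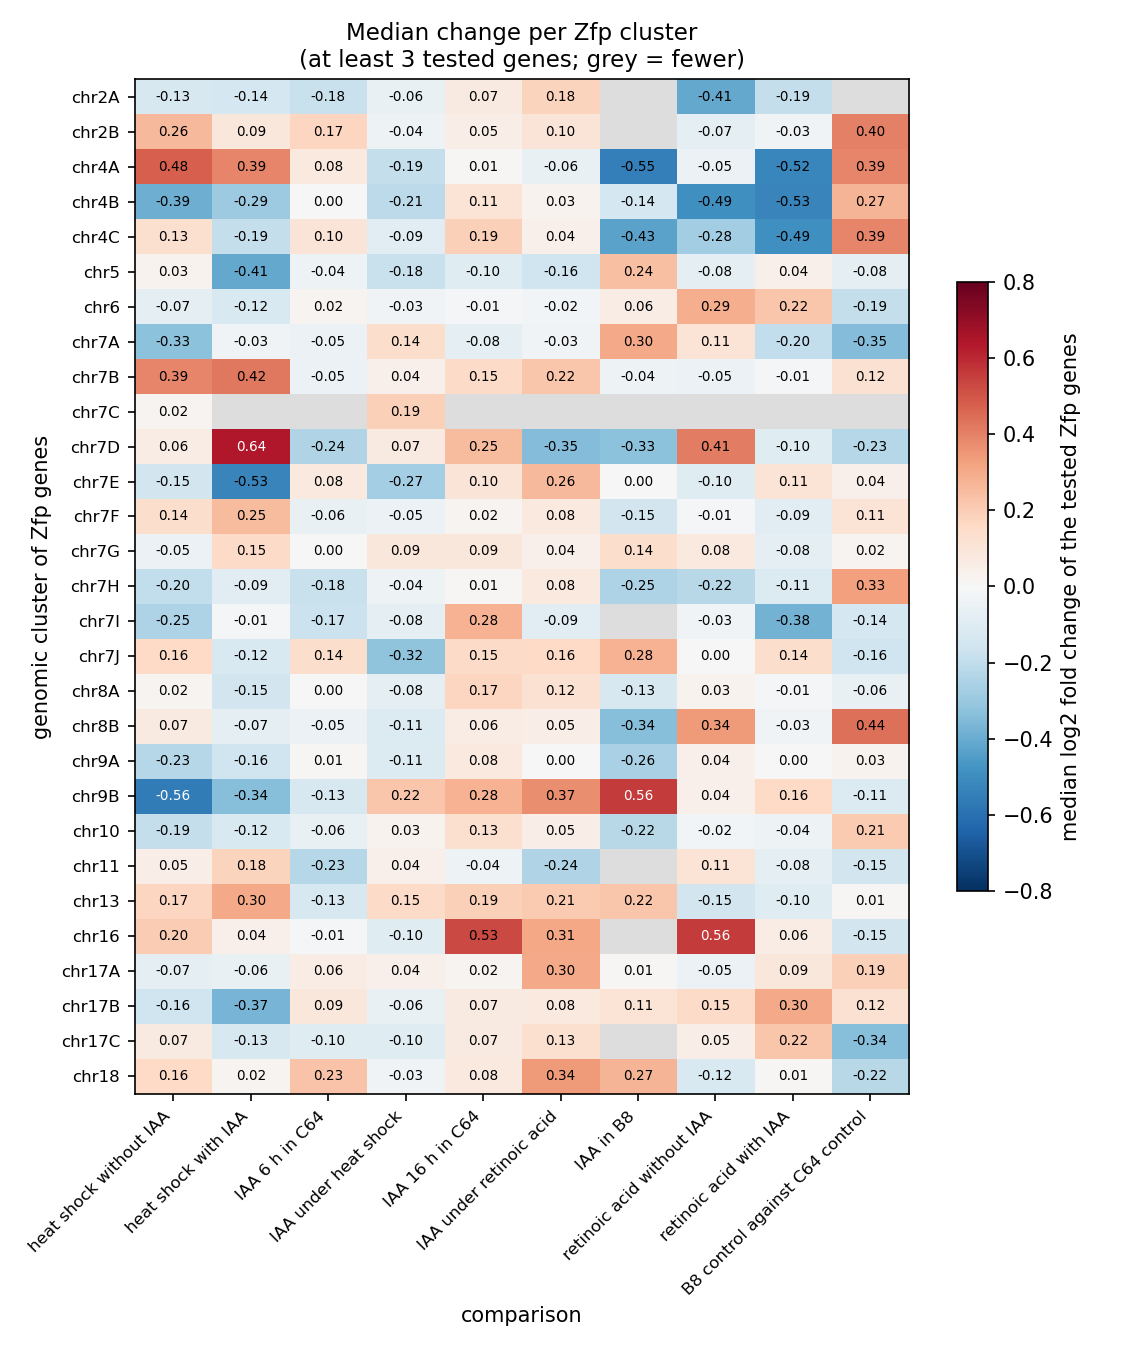
Median log2 fold change of the tested members (color and printed value) for each genomic cluster (rows, named by chromosome and order along it) in 10 comparisons (columns), for clusters with at least 3 tested members; gray cells had fewer. With IAA in B8 the medians of chr4A (-0.55) and chr4C (-0.43) were the lowest and that of chr9B (0.56) the highest.

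With IAA in B8, the members of the chromosome 4 clusters shared a sign in the fit of both runs. All 10 members of chr4C were below 0 (median -0.43, lowest Zfp984 at -0.62). So were 3 of 3 in chr4A (median -0.55) and 3 of 3 in chr4B (median -0.14). The median over the other genes of the chromosome was -0.01. In run 8 alone every member of these clusters was below 0. In run 6 alone Zfp993 (0.27), Zfp981 (0.22), Zfp985 (0.12), Zfp933 (0.1) and Zfp982 (0.03) were above 0. The sum over chr4B was 198 and 213 CPM with IAA in run 6, against 217 and 153 CPM in controls. The 4 called members of these clusters were Zfp980, Zfp984, Zfp978 and Zfp991. Zfp980 had 39.9 and 38.6 CPM with IAA in run 6, against 70.4 and 51.1 CPM in controls, and 93.1 and 70.9 CPM in run 8, against 122 and 135 CPM in controls, at -0.65 ± 0.14 (adjusted p = 0.0141). Zfp984 had 44.0 and 37.0 CPM with IAA in run 6, against 55.7 and 51.1 CPM in controls, and 61.6 and 54.6 CPM in run 8, against 88.4 and 108 CPM in controls, at -0.62 ± 0.14 (adjusted p = 0.0184).

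These neighbors are not independent measurements. Of the 50-base words of Zfp978, 92.4% also occur in another member, most of all Zfp979, and the shares are 83.7% for Zfp991 and 71.9% for Zfp980, so reads may be placed in either copy and the values of single genes are uncertain. Zfp984 shares only 18.8%. Across the set 65 members share over 10% of their words, 47 of them in clusters. KRAB genes of these chromosome 4 clusters are known in mice to restrain endogenous retroviruses.

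Summed over the 16 members of chr4A, chr4B and chr4C, the level was 669 and 651 CPM with IAA in run 6, against 773 and 692 CPM in controls, and 979 and 923 CPM in run 8, against 1408 and 1440 CPM in controls. With RA the sum was 608 and 450 CPM, against 851 and 535 CPM in controls, and with RAIAA it was 630.1 and 426 CPM, against 918 and 588 CPM with IAA. With RAIAA all 16 members were below 0, and with RA alone 15 of 16. The sum also differed between libraries of 1 group: the controls of run 2 had 650.1 CPM in library a and 1062 CPM in library b. With IAA for 6 h in C64 the sum was 691 and 1105 CPM in libraries a and b and with HS it was 660 and 1091 CPM. With HSIAA it was 520.1 and 1069 CPM, and the replicate block called Zfp992 (-0.78, adjusted p = 0.0139) and Zfp984 (-0.73, adjusted p = 0.0247) lower with HSIAA.

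The opposite sign was seen at chr9B, where 3 of 3 tested members lay above 0 with IAA in B8: Zfp809 (0.80), Zfp599 (0.56) and Zfp810 (0.19). Zfp599 had 45.7 and 23 CPM with IAA in run 6, against 18 and 15.7 CPM in controls, and 40.2 and 26.6 CPM in run 8, against 31 and 24.3 CPM in controls, where the groups overlapped in run 8. Of these members only Zfp809 passed the test. Over the whole set, the median change with IAA in B8 was -0.04 in each.

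Members with known roles in imprinting were not called. Zfp57, which keeps methylation at imprinted genes, changed by 0.46 with HS, by 0.43 with HSIAA and by 0.54 with IAA in B8. Zfp445, its partner in imprint control, changed by -0.31, -0.11 and 0.08 in the same comparisons, and Zfp568 by 0.33, 0.28 and -0.31. None of these passed the test. Of the 32 KRAB corepressor and heterochromatin genes (Trim28, Setdb1 and others), 31 were tested with HS, where 0 were higher and 1, Atrx, was lower (1.46% of all genes were lower). With HSIAA edgeR called 0 of 31 (0.698% and 0.704% of all genes were higher and lower). With IAA in B8, 30 were tested, of which 0 were higher and 3, namely Cbx5, Chd4 and Smarcad1, were lower (3.36% of all genes). Their median change was -0.06 with HS and -0.09 with IAA in B8. An unadjusted p below 0.05 by edgeR was reached by 9 of 31 with HS, against 16.0% of all genes. With HSIAA it was reached by 8 of 31, against 16.6%, and with IAA in B8 by 13 of 30, against 20.9%. Of these, 5, 7 and 12 were lower. The differences from all genes were not tested. 

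Members were also read by KRAB pattern and by promoter list, and those without the pattern may still carry a KRAB box. With IAA in B8, 3 of 116 tested members with the KRAB pattern were higher and 4 lower (median -0.08), and of 141 without it 1 was higher and 8 lower (median -0.01). With HS alone, 0 of 168 with the pattern were higher and 1, Zfp386, was lower, and of 179 without it 1 was higher and 2 were lower. Of the members in the TATA list, 53 were tested with HS and 35 with IAA in B8, and 0 were called in either (medians -0.09 and 0.02), while of those in the TATA-less list 287 and 216 were tested, with medians of -0.03 and -0.06. With HSIAA, the only called member of the TATA list was Zfp280c. Of all genes tested, 2.44% were higher and 3.36% lower with IAA in B8, and 1.57% and 1.46% with HS. With HSIAA the shares were 0.698% and 0.704%. At such shares few or no calls are expected in groups of this size, so nothing particular to a group is read from these counts. The differences between these groups of members were not tested.

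The summed level of the set differed between the B8 runs. Summed over the 400 members, the level with IAA in B8 was 12170 and 12100 CPM in run 6, against 13050 and 11590 CPM in controls, and 14630 and 14590 CPM in run 8, against 19330 and 18880 CPM in controls. The IAA libraries lay inside the range of the controls in run 6 and below it in run 8. Such a sum is weighted toward genes with many pairs, such as Zfp423 and Zfp532, which changed by -1.47 and -1.35 in run 8 alone. In that run the median change was -0.02 over members up to 100 kb and -0.22 over longer ones. The sum is thus not read as a fall of the typical member.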

How the data were processed

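Gene counts came from the deposited featureCounts tables of the 24 Pol II libraries. The authors aligned subsampled read pairs to mm10 with Bowtie2, kept PCR duplicates, and counted pairs over whole genes (Ensembl annotation, version 2.0.0 of featureCounts per the file headers) without strand. Pairs over more than 1 gene were left unassigned, the default of the counter. The submitters' processing notes also name FastQC, deepTools and bedtools. The deposited lists of gene names and start positions (other values) with and without a TATA box served as labels only.

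Counts were compared in edgeR 4.0.16 (R 4.3.3) with TMM scaling, filterByExpr at a minimum count of 20 and the quasi-likelihood F test, with Benjamini-Hochberg adjustment over all genes tested at 0.05. Each pairwise fit held the groups compared. The B8 fit had run as a term and used the genes of the C64 tables. Errors of log2 fold changes are Wald standard errors without shrinkage, and TMM removes any change shared by all genes. CPM values are TMM-scaled over the 24 libraries. Alternatives were the likelihood-ratio test, DESeq2 1.42.0, RLE size factors, no filter, a replicate block, each library left out and single B8 runs. Scripts were tested on simulated data.

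The replicate block was judged from deviations from group means, which correlated between libraries of the same set at 0.114 to 0.530 in the 6 pairs of groups of run 2 and at 0.450 to 0.644 in those of run 3, but at -0.04 and 0.01 in the B8 runs. The main fits have no block. Since the numbers pair the libraries of runs 2 and 3 by this measure, the value with the block stands beside the results it changes there.

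C2H2 fingers and KRAB boxes were matched in the translated coding sequences of the reference annotation. Sequence copies were counted as 50-base words shared between members' genes. Named members are, per comparison, the called members with separate groups, at most 5 per direction by size of change, or else the 3 with the smallest p, beside the extremes of each cluster, the highest levels, those next to the filter and a list of known roles. Members called only under the block or only in B8, and Zfp317, Zfp791, Zfp532 and Zfp462 where they fall outside that rule, were chosen after their values were seen. The members, lists and clusters were chosen with earlier results of these data known.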

Additional observations from a re-analysis of the deposited data

Results flagged for a closer look

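One library stood apart from the others of its group. Zfp410 had 71.5 CPM in replicate 2 of the IAA libraries of B8 in run 6, while the other 3 B8 libraries with IAA had 36.3 to 41.5 CPM and the 4 B8 controls had 24.6 to 36.8 CPM. The gap was 0.85 of the range, which exceeds the Dixon limit at 95% for 4 values. Among the 30 groups examined, 1 was set apart in this way, and chance gives about 1 in 20.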

How the results depend on the processing

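All 16 changes of named members past the threshold kept their direction under the alternatives run. With the replicate block, counts of members called were 1 after 6 h of IAA, 2 after 16 h, 23 with HS, 31 with HSIAA, 1 for IAA under HS, 29 with RA, 7 with RAIAA, 1 for IAA under RA, 8 with IAA in B8 (1 higher and 7 lower) and 9 for IAA across contexts. In B8 the numbers do not pair the libraries, so that loss is not read as a weaker effect. Without the block they were 0, 0, 4, 6, 0, 0, 0, 0, 16 and 2, and both interactions stayed at 0.

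The likelihood-ratio test called 10 members with HS, 14 with HSIAA, 2 with RA, 2 with RAIAA and 2 for B8 minus C64. DESeq2 called 2 with RA, 3 with RAIAA, 2 for B8 minus C64 and 5 across contexts. Without the low count filter the counts were 1 with HS, 16 with HSIAA, 3 with RAIAA, 2 for B8 minus C64 and 1 across contexts. The shares of all genes called under these alternatives are not set beside these counts. Nothing particular to the members is therefore read from them. IAA in B8 gave 0 in run 6 alone, 46 in run 8 alone and 0 without a term for run, and B8 against C64 gave 21 with the run 8 controls and 2 with the run 6 controls. The causes were not tested. Leaving out 1 library gave 1 to 36 with HS, 1 to 56 with HSIAA, 0 to 1 with RA, 0 to 5 with RAIAA, 6 to 39 with IAA in B8, 0 to 4 for B8 minus C64 and 0 to 2 across contexts, and 0 elsewhere. Where that leaves 1 library in a group, it is assumed to vary like the other group. Clusters numbered 26 with gaps of 100 kb, 33 with 500 kb and 17 with at least 5 members.

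Low counts kept 141 members untested in B8 and 48 with HS. Of these, 37 and 30 lay within the bounds of other genes over at least 50% of their length, where pairs can stay unassigned. The median standard error of a member with HS was 0.32.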
